A study of Danio rerio with 8 samples.

Results

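The genes examined were 9 enzymes of the late part of cholesterol synthesis, which turns the product of squalene into cholesterol: lss, cyp51, tm7sf2, msmo1, nsdhl, hsd17b7, ebp, sc5d and dhcr7. They were taken by gene symbol from a table of 28599 named rows, and each was found on a single row. The rule itself uses no measured value, but the set was drawn up with earlier results of these data known. The livers came from zebrafish larvae aged 7 days, with 10 livers pooled for each total RNA library, and there were 4 pools of the lf:YAP line and 4 of WT larvae. The lf:YAP larvae carry YAP activation that is specific to hepatocytes, per the labels, and WT larvae carry none. YAP is the transcriptional effector of the Hippo pathway. Larvae of both groups were kept in plates from day 3 and received no treatment. The promoter and the YAP allele of the transgene, and whether pools of a group came from separate clutches, are not stated in the labels. The p-values therefore weigh the difference between groups against how far these pools vary, and some of that variation may be technical. If the pools of a group shared a clutch, their spread leaves out variation between clutches. A difference of clutch between the groups could then not be told apart from the difference between lf:YAP and WT.

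Once squalene has been turned into its epoxide, the late part of cholesterol synthesis begins with ring closure to lanosterol. Further enzymes then remove methyl groups from the sterol, shift and reduce its double bonds, and so arrive at cholesterol. The liver uses the product for membranes, lipoproteins and bile acids. Transcription of most genes of the pathway is driven in vertebrates by SREBP2, a membrane-bound factor that is released from the endoplasmic reticulum when sterol is low. Several of these enzymes are known in humans from inherited disorders of sterol synthesis, among them DHCR7 in Smith-Lemli-Opitz syndrome.

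Counts on named genes numbered 2668432 to 3170508 per lf:YAP library and 2853543 to 3797709 per WT library. The yap1 transcript, which checks the labels, stood at 631, 1012, 300 and 1304 CPM (counts scaled to 1e+06 per library after TMM adjustment of the library size) in lf:YAP replicates 1 to 4, against 23.7, 23.6, 16.7 and 20.9 CPM in WT replicates 1 to 4. All 8 hepatocyte markers were detected, of which 2 rose and 2 fell by edgeR's quasi-likelihood test, with levels summed by total counts of 19841 to 26763 CPM in lf:YAP and 22590 to 29745 CPM in WT. Exocrine pancreas transcripts were also present, at 1.35% of the counts in lf:YAP replicate 3 and 1.13% in WT replicate 4, and at 0.252% to 0.686% in the other libraries. Of 5 bile duct markers, 4 rose, where 11.1% of all genes tested did, with sums of 2762 to 6667 CPM in lf:YAP and 1419 to 1636 CPM in WT. In lf:YAP, krt8 averaged 1579 CPM, anxa4 1086 CPM, krt18a.1 1061 CPM, krt4 164 CPM and sox9b 16.0 CPM. The marker that did not rise was krt4, with a higher mean of 207 CPM in WT (adjusted p = 0.685 by edgeR). Which cells these transcripts came from was not tested. All 3 stellate cell markers tested fell, where 10.5% of all genes did. A further one, hand2, did not pass the filter and went the other way, at a mean of 3.02 CPM in lf:YAP and 1.03 CPM in WT. Over the stellate list the sums were 16.4 to 27.0 CPM in lf:YAP and 29.4 to 74.5 CPM in WT. Of the intestine markers 3 of 5 tested fell, as did 2 of 6 of skeletal muscle, of which 1 rose, and their sums overlapped between the groups. Blood and macrophage markers, none of which passed the filter, summed to 6.75 to 17.7 CPM in lf:YAP and 3.15 to 3.95 CPM in WT. The part of these cell types in the sterol enzyme values was not tested, and in pooled tissue a change in the number of cells of a type and a change in RNA per cell cannot be told apart. The hemoglobin genes hbba1 and hbaa1 were listed at 0 in every library.

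Transcripts of most of these enzymes were higher in lf:YAP livers, but unequally so. The sterol demethylase gene cyp51 was higher by about 7.06-fold and the desaturase gene sc5d by 4.50-fold in group means, while nsdhl and dhcr7 differed by 1.17-fold and 1.31-fold, and the reductase gene tm7sf2 was lower, at 0.465 of its WT mean. For 8 of the 9 genes the groups did not overlap, with lf:YAP higher for 7 and lower for 1. A looser filter, of 1 CPM or more in at least 4 libraries, was passed by all 9 members, and 19.9% of the genes that passed it did not overlap. By the edgeR quasi-likelihood test over all genes tested, cyp51, msmo1 and sc5d rose and tm7sf2 fell, nsdhl and dhcr7 did not pass, and lss, hsd17b7 and ebp were too sparse for the main filter on low counts. The 4 changed members are read against 21.6% of all 8369 genes tested, of which 11.1% rose and 10.5% fell. With the looser filter 7 of the 9 passed, where 16.5% of all genes did, but lss, hsd17b7 and ebp entered that fit through their lf:YAP libraries. The median log2 fold change was 0.81 over the 6 members tested and 0.01 over all genes tested. That median cannot stand for the pathway, because a gene had to reach 3.44 CPM in 4 libraries to be tested. sc5d did so in lf:YAP libraries alone, and tm7sf2 in all 4 WT libraries and 1 lf:YAP library.

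**Figure D1:**
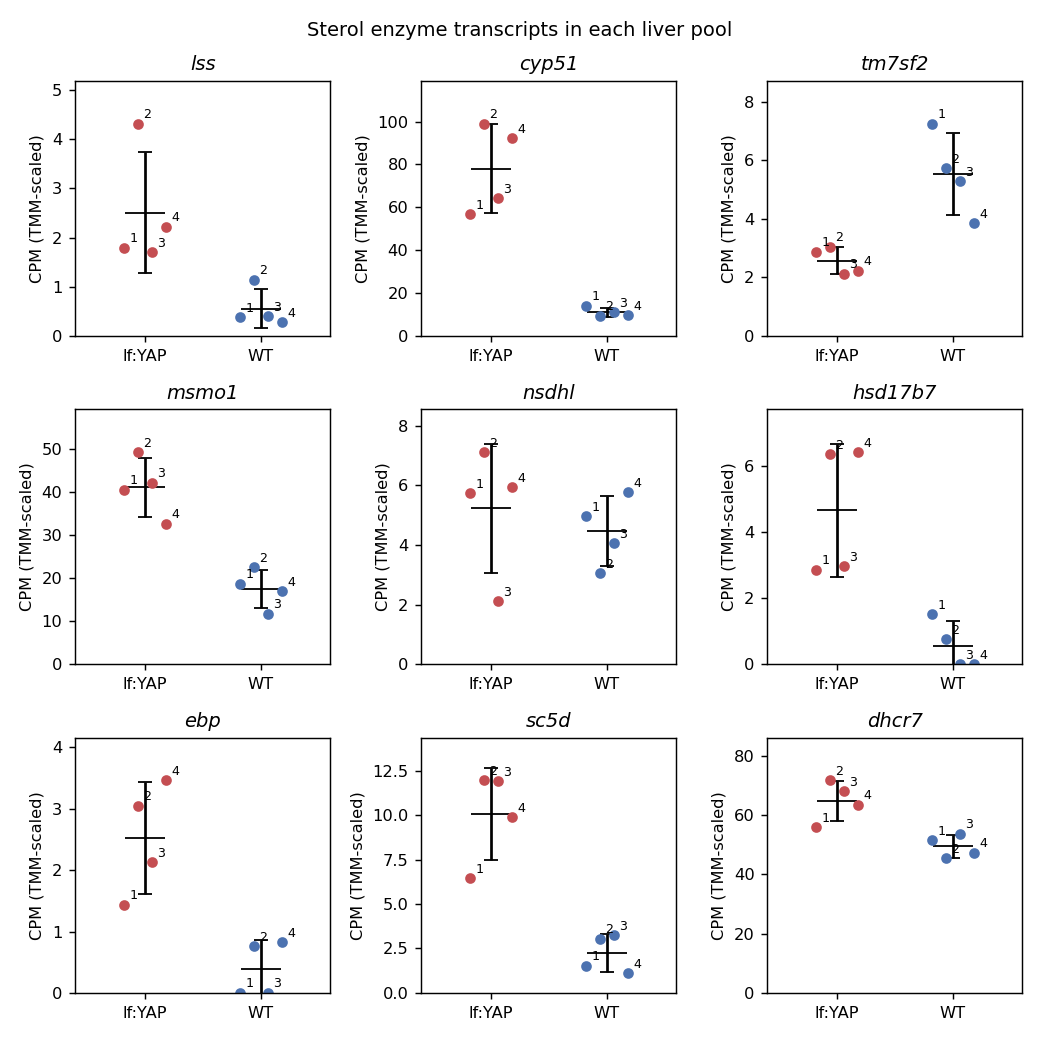
TMM-scaled CPM of the 9 sterol enzyme genes in each pool, lf:YAP in red on the left and WT in blue on the right; numbers are replicates, the wide tick is the mean and the bar is the SD (n = 4 each), cut off at 0. The groups overlap for nsdhl alone, and tm7sf2 is the gene with lower values in lf:YAP.

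The pathway opens with lss, which encodes lanosterol synthase, the enzyme that closes the sterol rings. It was detected with 5, 17, 4 and 9 counts in lf:YAP replicates 1 to 4, against 1, 3, 1 and 1 counts in WT replicates 1 to 4. Every lf:YAP pool was above every WT pool, but all values were small. Scaled for library size, the summed counts of 35 in lf:YAP and 6 in WT gave a ratio of 5.04 with an interval of 2.099 to 14.7, which covers counting error only. A 2-sided exact permutation test on TMM-scaled CPM gave p = 0.0286, the smallest that 4 against 4 libraries allow. Every gene whose groups do not overlap gets this value, so it adds nothing to the separation of the pools. With the looser filter, edgeR gave 2.22 ± 0.61 on the log2 scale (± SE; adjusted p = 0.0208, and 0.0111 to 0.0972 over 14 other settings). lss passed that filter through all 4 lf:YAP libraries and 1 WT library, and so needed the higher group to be tested. The adjusted p was 0.0531 to 0.0972 without lf:YAP replicate 2 or without WT replicate 1, 3 or 4, and the log2 fold change was 2.80 without WT replicate 2, which held 3 of the 6 WT counts.

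The step after it belongs to cyp51, the lanosterol demethylase of the cytochrome P450 family and a target of azole inhibitors. Its level was 56.7, 99.1, 64.3 and 92.2 CPM in lf:YAP replicates 1 to 4, against 14.1, 9.53, 10.98 and 9.61 CPM in WT replicates 1 to 4. The lowest lf:YAP pool lay far above the highest WT pool. The log2 fold change had a 95% interval of 2.33 to 3.32 around 2.83 (adjusted p = 1.2e-05 by edgeR's quasi-likelihood test), and 44 of the 8369 genes tested had a higher one. The change rested on 1072 counts in lf:YAP and 124 in WT. Among lf:YAP pools its coefficient of variation was 26.6%, against 6.11% from counting alone, so those pools differed by more than counting error. Among WT pools it was 19.4%, near the 17.96% from counting.

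The double bond that the demethylase leaves is reduced by tm7sf2, a sterol reductase of the endoplasmic reticulum. It stood at 2.87, 3.05, 2.13 and 2.22 CPM in lf:YAP replicates 1 to 4, against 7.25, 5.72, 5.29 and 3.84 CPM in WT replicates 1 to 4. The groups were separate, with WT replicate 4 closest to lf:YAP. tm7sf2 fell by 1.06 on the log2 scale, with an SE of 0.31 and an adjusted p of 0.0273 by edgeR, and with a 95% interval of -1.74 to -0.39, and 7.66% of genes tested had a lower one. It rested on 34 counts in lf:YAP and 61 in WT, 5 to 12 and 13 to 19 per library. The call was lost in 5 of 8 fits that each left out a library, these being lf:YAP replicates 2 and 4 and WT replicates 1, 2 and 3, with adjusted p-values of 0.0527 to 0.0827. The same reaction can be carried out by the lamin B receptor gene lbr, a reductase of the inner nuclear membrane. lbr had 12, 13, 4 and 24 counts in lf:YAP replicates 1 to 4, against 6, 7, 3 and 8 counts in WT replicates 1 to 4. Those groups overlapped, and with the looser filter its log2 fold change was 0.91 (adjusted p = 0.163), so the fall was measured in tm7sf2 and no matching change was detected in lbr.

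Next come the enzymes that strip the methyl groups from the opposite end of the ring system. msmo1, the oxidase that attacks those methyl groups, stood at 40.5, 49.3, 42.1 and 32.6 CPM in lf:YAP replicates 1 to 4, against 18.7, 22.5, 11.8 and 17.0 CPM in WT replicates 1 to 4. Every lf:YAP pool was above every WT pool, and lf:YAP replicate 4, one of the pools with the most cyp51, had the least msmo1 of its group. The gene rose by 1.23 ± 0.21 (SE) on the log2 scale, with an adjusted p of 0.00128 by edgeR and a 95% interval of 0.78 to 1.67.

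nsdhl encodes the dehydrogenase that removes the oxidised carbon. Its level was 5.74, 7.12, 2.13 and 5.93 CPM in lf:YAP replicates 1 to 4, against 4.96, 3.05, 4.07 and 5.77 CPM in WT replicates 1 to 4. The groups overlapped: lf:YAP replicate 3, with 5 counts, was the lowest of all 8 libraries, and lf:YAP replicate 1 also lay below WT replicate 4. The log2 fold change of 0.25 did not pass (adjusted p = 0.647 by edgeR), and its 95% interval of -0.49 to 1.002 leaves room for a 2-fold rise. Leaving out lf:YAP replicate 3 and WT replicate 4 together, the libraries richest in pancreas transcripts, gave 0.62 (adjusted p = 0.187 by edgeR). That choice was made after seeing the data. These libraries also held the lowest lf:YAP value and the highest WT value of nsdhl, so leaving them out raises its fold change in any case. The part of pancreas transcripts in it was not tested.

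hsd17b7, the ketoreductase that restores the alcohol group, was nearly undetected in WT. It had 8, 25, 7 and 26 counts in lf:YAP replicates 1 to 4, against 4, 2, 0 and 0 counts in WT replicates 1 to 4. The lowest lf:YAP pool was above the highest WT pool after scaling, at 2.87 CPM against 1.53 CPM. The scaled ratio of the summed counts, 66 in lf:YAP and 6 in WT, was 9.51 with a counting interval of 4.15 to 26.9. The 2-sided exact permutation test on TMM-scaled CPM gave p = 0.0286, again the smallest possible and fixed by the lack of overlap. hsd17b7 passed the looser filter through all 4 lf:YAP libraries and 1 WT library, and so needed the higher group to pass it. With that filter edgeR gave 3.10 ± 0.68 on the log2 scale (± SE, adjusted p = 0.0062, and 1.47e-06 to 0.0248 over 14 other settings). Without WT replicate 1, which held 4 of the 6 WT counts, the value was 4.19.

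The last 3 members rearrange the remaining double bonds. ebp, the isomerase that shifts a double bond within the ring system, had 4, 12, 5 and 14 counts in lf:YAP replicates 1 to 4, against 0, 2, 0 and 3 counts in WT replicates 1 to 4. The groups were separate at very low levels, and 2 WT libraries had none. The scaled ratio of 35 counts in lf:YAP to 5 in WT was 6.05, with a counting interval of 2.36 to 19.8. The 2-sided exact permutation p was again 0.0286, fixed by the lack of overlap. ebp passed the looser filter through all 4 lf:YAP libraries and no WT library, and so needed the higher group to pass it. With that filter the log2 fold change by edgeR was 2.50 ± 0.69 (SE, adjusted p = 0.0221, and 0.00532 to 0.0647 over 14 other settings). Leaving out replicate 2 or 4 of lf:YAP ended the call, as did leaving out replicate 1 or 3 of WT, with adjusted p-values of 0.0536 to 0.0647, and it was 3.15 without WT replicate 4, which held 3 of the 5 WT counts.

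sc5d, a desaturase that inserts a double bond into the ring system, stood at 6.46, 11.9, 11.9 and 9.88 CPM in lf:YAP replicates 1 to 4, against 1.53, 3.05, 3.25 and 1.098 CPM in WT replicates 1 to 4. All lf:YAP pools were above the WT pools, and lf:YAP replicate 1 was the lowest of its group. The gene rose by 2.21 ± 0.36 (SE) on the log2 scale (adjusted p = 0.00103 by edgeR), with 18 to 47 counts per library in lf:YAP and 4 to 8 in WT. It passed the main filter through all 4 lf:YAP libraries and no WT library, and so needed the higher group to be tested.

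dhcr7 encodes the reductase that removes a different double bond of the ring system to give cholesterol. It had 56.0, 71.7, 68.1 and 63.5 CPM in lf:YAP replicates 1 to 4, against 51.5, 45.4, 53.7 and 47.2 CPM in WT replicates 1 to 4. The groups were separate by a narrow margin, between lf:YAP replicate 1 and WT replicate 3. The log2 fold change was 0.39 ± 0.15 (SE), with a 95% interval of 0.07 to 0.71. It did not pass edgeR's quasi-likelihood test after adjustment over all genes (adjusted p = 0.0766). The gene had 855 counts in lf:YAP and 558 in WT, and its coefficient of variation was 10.4% among lf:YAP pools, where counting alone gives 6.84%, and 7.72% among WT pools, where counting alone gives 8.47%.

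**Figure D2:**
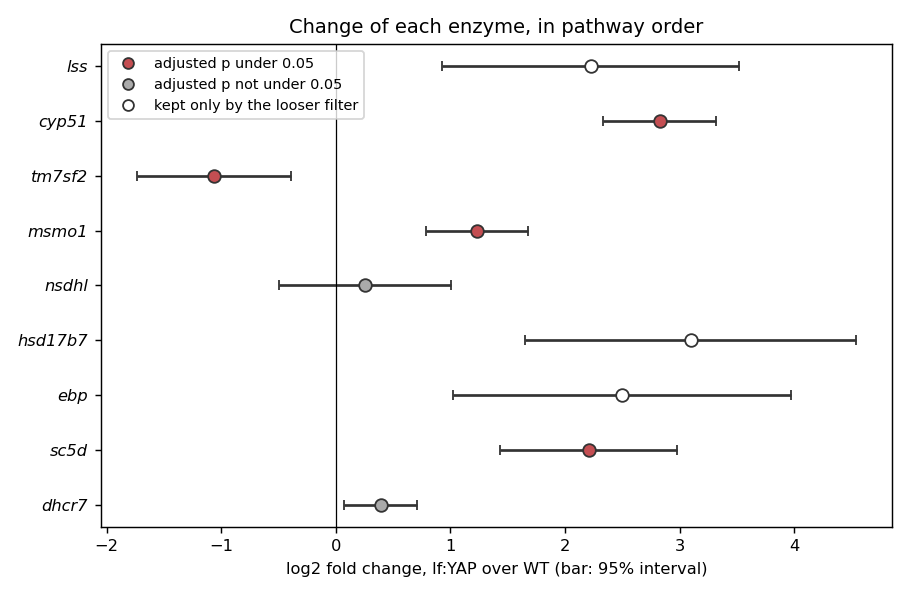
Change of each enzyme in lf:YAP over WT, as a log2 fold change, from the start of the pathway at the top to its end at the bottom, with 95% intervals; red points passed an adjusted p of 0.05 by edgeR, grey points did not, and open points come from the fit with the looser filter. The open points of lss, hsd17b7 and ebp have the widest intervals, and tm7sf2 is the point with its interval below 0.

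In the fit with the looser filter, which holds all 9 members, hsd17b7 (3.10) and cyp51 (2.85) had the highest log2 fold changes, followed by ebp (2.50), sc5d (2.23), lss (2.22), msmo1 (1.26), dhcr7 (0.42), nsdhl (0.28) and tm7sf2 (-1.04). The 95% intervals of hsd17b7, cyp51, ebp, sc5d and lss overlapped one another, so their order among themselves is not resolved. In that fit the interval of cyp51 began at 2.36, above the upper ends of msmo1 at 1.69, dhcr7 at 0.75 and nsdhl at 1.03. Among the 8369 genes past the main filter, 1.22% had a higher log2 fold change than sc5d and 4.92% a higher one than msmo1. For dhcr7 the share was 24.5% and for nsdhl 32.5%. sc5d passed the main filter, and hsd17b7, ebp and lss the looser one, only with their lf:YAP libraries.

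**Figure D3:**
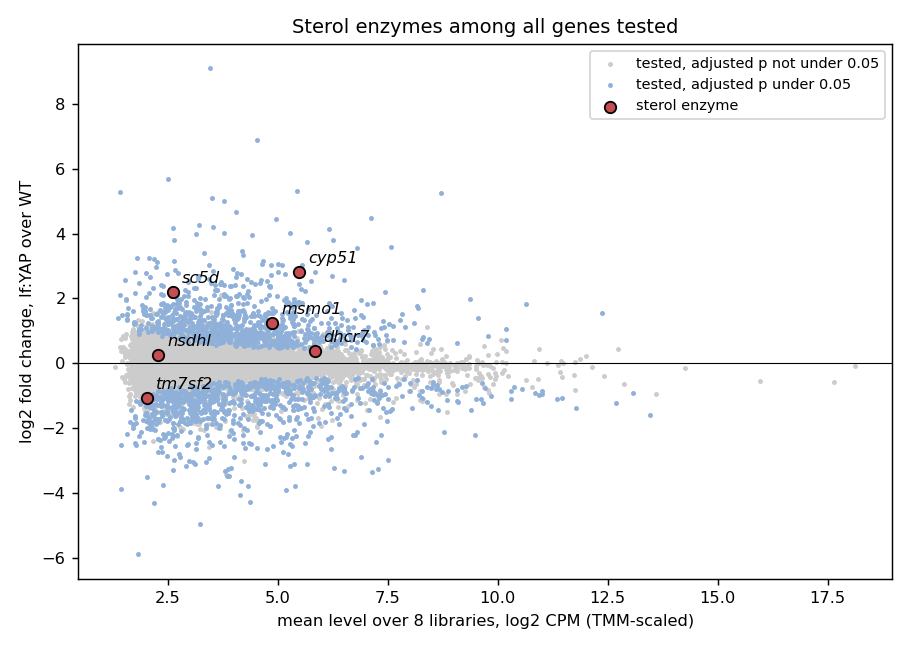
Change in lf:YAP over WT, as a log2 fold change, against the mean level in log2 CPM for all 8369 genes tested, with the 6 sterol enzymes that passed the main filter in red. cyp51 at 2.83 and sc5d at 2.21 lie near the upper edge of the cloud, dhcr7 at 0.39 and nsdhl at 0.25 lie within its grey core, and tm7sf2 at -1.06 lies below 0.

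How libraries were scaled bore on whether dhcr7 and tm7sf2 passed. With total counts alone in place of TMM factors, the median over all genes of the log2 fold change was 0.31 in place of 0.01, and 74.7% of called genes were higher in lf:YAP in place of 51.5%. Under that scaling dhcr7 passed (0.70, adjusted p = 0.0239) and tm7sf2 did not (-0.75, adjusted p = 0.127). Relative to the median of all genes they were then 0.39 and -1.07, close to the values above. The sign of no member changed with the scaling.

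The make-up of the pathway's counts does not depend on scaling between libraries. Of the counts on the 9 genes together, cyp51 took 32.5% to 42.2% in lf:YAP libraries and 10.4% to 14.1% in WT libraries. dhcr7 took 28.0% to 34.5% in lf:YAP and 49.4% to 60.0% in WT. The share of tm7sf2 was 1.02% to 1.65% in lf:YAP and 4.49% to 7.25% in WT, and that of nsdhl was 1.08% to 3.29% in lf:YAP and 3.32% to 6.73% in WT. In each of these cases the groups did not overlap, though for nsdhl the margin was only from 3.29% to 3.32%, on few counts. Within a library a larger share of 1 gene lowers the shares of the others, so a lower share is not in itself a lower level. In mean CPM, dhcr7 was 1.31-fold and nsdhl 1.17-fold higher in lf:YAP. The share of msmo1 did overlap, at 14.9% to 23.3% in lf:YAP and 13.2% to 24.5% in WT. Summed over the 9 genes, the level was 212 ± 34.6 CPM in lf:YAP and 91.8 ± 6.05 CPM in WT (SD, n = 4 each). These shares are of reads, not of molecules, as the counts were not divided by transcript length.

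**Figure D4:**
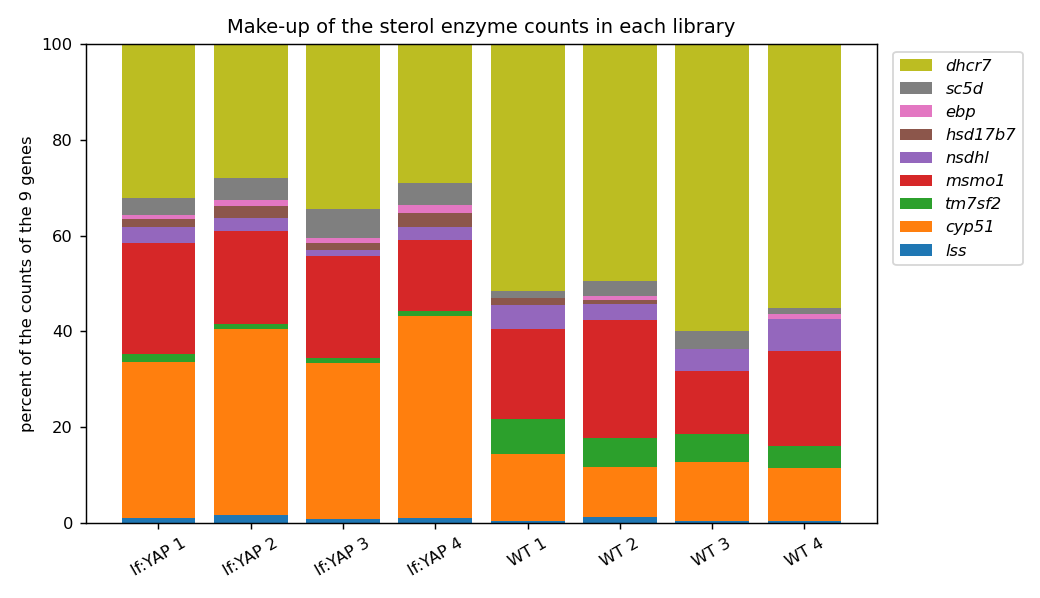
Percent of the counts on the 9 sterol enzyme genes that fell on each gene, by library, with lf:YAP on the left and WT on the right. The orange part, cyp51, takes 32.5% to 42.2% in lf:YAP and 10.4% to 14.1% in WT, and the olive part at the top, dhcr7, takes 28.0% to 34.5% in lf:YAP and 49.4% to 60.0% in WT.

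Ratios between neighbouring enzymes, taken within each library, are free of library scaling as well. The log2 ratio of cyp51 to tm7sf2, a demethylase and the reductase that follows it, was 4.30 to 5.37 in lf:YAP and 0.74 to 1.32 in WT, a difference of 3.89 between group means. That of sc5d to dhcr7, the desaturase and the reductase of the last steps, was -3.12 to -2.51 in lf:YAP and -5.43 to -3.89 in WT, a difference of 1.89. The ratio of msmo1 to nsdhl overlapped, at 2.46 to 4.31 in lf:YAP and 1.54 to 2.88 in WT. These ratios are descriptions of the libraries and carry no test.

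The lf:YAP pools differed among themselves, and the members did not all follow the same order. For cyp51, lss, hsd17b7, ebp and nsdhl, replicates 2 and 4 were both above replicates 1 and 3, as they were for yap1. That is 5 of 9 members, against 20.5% of all genes kept by the looser filter and 52.4% of those called higher under it. For msmo1, sc5d, dhcr7 and tm7sf2 the pools fell in other orders. In lf:YAP replicate 3, the pool with the least yap1, cyp51 stood 2.54 and sc5d 2.42 above the WT mean on the log2 scale, while nsdhl stood at -1.07, below it. Bile duct markers summed to 3769, 4636, 2762 and 6667 CPM by total counts in lf:YAP replicates 1 to 4. The orders above are in TMM-scaled CPM, and the TMM factors of these pools were 1.04, 1.28, 0.869 and 1.28. The 2 sets of values are thus not on the same scale. The part of bile duct transcripts in the order of the pools was not tested.

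**Figure D5:**
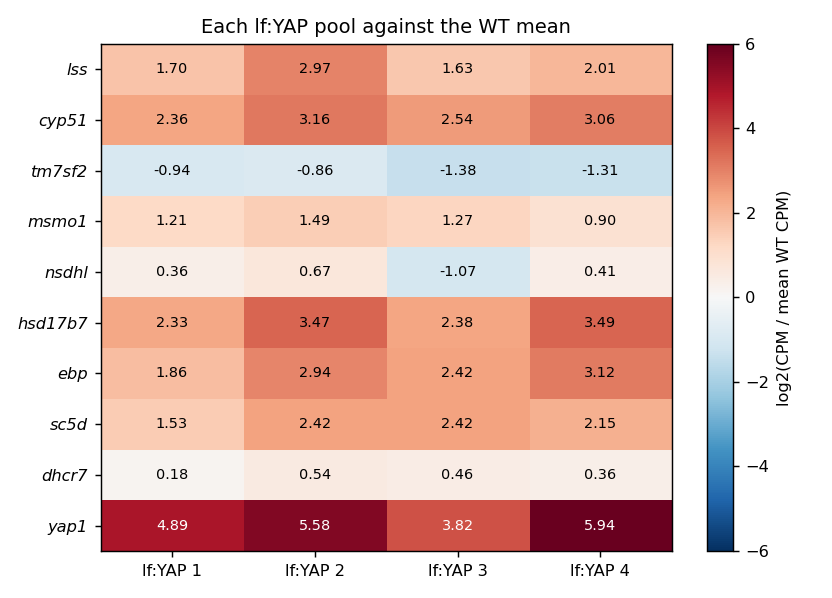
Log2 ratio of each lf:YAP pool to the mean of the WT pools for the 9 sterol enzymes and for yap1, on a colour scale from blue (lower) to red (higher). cyp51 lies between 2.36 and 3.16 in all pools and tm7sf2 between -1.38 and -0.86, while nsdhl has 1 pool below 0.

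Around these steps, the rest of the sterol system moved in part. Of 8 tested genes of the mevalonate and squalene steps, 6 rose and 2 did not pass, against 11.1% of all genes called higher. The farnesyl diphosphate synthase gene fdps averaged 19.4 ± 8.33 CPM in lf:YAP and 2.34 ± 1.35 CPM in WT, and the synthase gene hmgcs1 averaged 23.2 ± 14.1 CPM in lf:YAP and 4.35 ± 1.302 CPM in WT (SD, n = 4 each). The isomerase gene idi1 rose by 0.90 ± 0.17 on the log2 scale (± SE). The thiolase gene acat2 (1.43) and the reductase gene hmgcra (2.53) also rose, but leaving out lf:YAP replicate 2 or WT replicate 2, 3 or 4 ended the call of acat2, and leaving out lf:YAP replicate 4 or WT replicate 2 or 3 that of hmgcra (adjusted p of 0.0515 to 0.0695). The remaining gene that rose, fdft1 (1.29), was named to complete the count after its value was seen. The WT means of fdps, of acat2 (3.01 CPM) and of fdft1 (3.34 CPM) were under the 3.44 CPM that a gene had to reach in 4 libraries. These genes thus needed lf:YAP libraries to be tested, so the count of 6 of 8 cannot stand for these steps. The squalene epoxidase gene sqlea, which makes the substrate of lss, was too sparse for the main filter, with 3 lf:YAP libraries and no WT library at 3.44 CPM or more. It averaged 5.91 ± 3.14 CPM in lf:YAP and 0.952 ± 0.723 CPM in WT (SD, n = 4 each), and the groups overlapped. With the looser filter its log2 fold change was 2.74 (adjusted p = 0.00629 by edgeR), though its WT mean was under the 1 CPM of that filter.

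Of further genes linked to sterol steps or their electron donors, faxdc2 fell, while the cytochrome b5 gene cyb5a (-0.37) and the binding protein gene pgrmc1 (-0.23) did not pass. faxdc2 belongs to the same hydroxylase superfamily as msmo1 and sc5d. It averaged 93.7 ± 37.7 CPM in lf:YAP and 244 ± 26.3 CPM in WT (SD, n = 4 each). On the log2 scale its difference was -1.38 ± 0.26 (SE), with an adjusted p of 0.00254 by edgeR.

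Of 9 tested genes that control SREBP processing, 4 rose and 5 did not pass, against 11.1% of all genes called higher. Those that rose were the factor genes srebf2 (0.89) and srebf1 (0.70), insig1 (0.66), which encodes the sterol-dependent anchor of the SREBP complex, and the ubiquitin ligase gene rnf139 (0.81). The anchor's ligase gene amfra had 0.32 (adjusted p = 0.155). The calls of insig1 and srebf2 depended on single libraries, insig1 on replicates 1 and 2 of both groups and srebf2 on WT replicates 2 and 4 (adjusted p of 0.0502 to 0.0805). Of 16 tested genes of sterol uptake, storage and export, 3 rose, 3 fell and 10 did not pass, against 11.1% of all genes called higher and 10.5% called lower. The receptor gene ldlrb (2.06), the esterifying enzyme gene soat1 (0.80) and the plasma enzyme gene lcat (0.74) rose, the last not without WT replicate 1 or 2 (adjusted p of 0.0516 to 0.0534). ldlrb, with a WT mean of 2.94 CPM, needed lf:YAP libraries to be tested. The esterifying enzyme gene soat2 (-2.42), the hydroxylase family gene cyp27a7 (-1.39) and the transporter gene abca1a (-0.71), named to complete the count after its value was seen, fell.

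Genes whose profile over the 8 libraries was most like that of a member were found by the root mean square difference of log2 CPM after removing each gene's mean. Closest to cyp51 were the fatty acid desaturase gene fads2 (0.22) and the phospholipase family gene plbd1 (0.24). Closest to sc5d were adck5 (0.30) and the protein S gene pros1 (0.34), to msmo1 bcl2a (0.18) and ppp1r13bb (0.19), and to dhcr7 the chaperonin subunit gene cct5 (0.06) and the cytokine receptor subunit gene il6st (0.08). Next to tm7sf2 stood the clock gene family member ciartb and the chromatin remodelling ATPase gene smarca2, both at 0.11, and next to nsdhl yif1b and pdlim4, both at 0.19. Among the members themselves, the nearest pairs were nsdhl with dhcr7 (0.51), msmo1 with dhcr7 (0.53) and cyp51 with sc5d (0.60), and the farthest was cyp51 with tm7sf2 (1.87). The measure also holds the size of the change between groups, so a near pair need not share an order of pools.

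In the authors' deposited table, 6 of the 9 members had an adjusted p under 0.05, where 5.02% of all rows did. That share is over all 35117 rows, with rows that have no gene name or no counts among them, while all 9 members had counts. The 6 members were cyp51, msmo1, sc5d, hsd17b7, ebp and lss, the last 3 with log2 fold changes of 3.44, 2.73 and 2.06 and adjusted p-values of 0.0236, 0.0258 and 0.0397 in the authors' deposited table. The authors' deposited table gave tm7sf2 a log2 fold change of -0.95 with an adjusted p of 0.0664, and dhcr7 one of 0.45 with an adjusted p of 0.0603. dhcr7 was thus above the threshold in both, while tm7sf2 was under it in the edgeR test and above it in the authors' deposited table.

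In GRCz12tu, an assembly of RefSeq that is not the build of the files, the 9 members lie on 9 different chromosomes, so they are not neighbours of each other. There, nsdhl overlaps cetn2 and dhcr7 overlaps nadsyn1. Each of cyp51, hsd17b7 and dhcr7 also overlaps a gene known only by an identifier, whose level was not analysed here. The strand setting of the counting is not known, so reads from such overlaps cannot be told apart. cetn2 averaged 0.0635 CPM in lf:YAP and 0.709 CPM in WT, and nadsyn1 averaged 0.932 CPM in lf:YAP and 0.975 CPM in WT, all below the levels of the members they overlap.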

How the data were processed

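The submitters' processing notes name the build danRer10, the counter featureCounts 1.6.0, the aligner HISAT2 2.1.0, the trimmer cutadapt 1.16 and limma 3.40.6, without saying how each was used. Annotation and strand setting: not given in the sources used here. The authors deposited 1 table with whole-number counts and CPM values per library, and their own log2 fold change, mean log2 expression, p-value and adjusted p-value per gene. The deposited CPM values were not used in any test. Of 35117 rows, 6518 carry no gene name; they held 0.657% to 2.55% of a library's counts and were left out.

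Deposited counts were fitted in R 4.3.3 with edgeR 4.0.16 over the whole table: filterByExpr, TMM factors, robust quasi-likelihood F-test, 2-sided, with group as the only term, and Benjamini-Hochberg adjustment over all genes tested at a threshold of 0.05. The procedure was checked on simulated data. SEs were taken from the log2 fold change and its F statistic. Levels were scaled by TMM; marker sums are CPM by total counts. A looser filter kept genes at 1 CPM in 4 libraries. Where a symbol is on several rows, the row with the most counts was used. Alternatives included DESeq2 1.42.0 and limma-voom (limma 3.58.1).

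The 9 members and the lists of related genes were chosen with earlier results of these data known. Named genes were the members, yap1, up to 5 of each related list by smallest p, and the 2 most alike genes per tested member, with clone names passed over. Added after their values were seen were lbr, sqlea, fdft1, abca1a, cetn2 and nadsyn1. Promoter and protein sequences were planned and not analysed here. Some genes of these lists are not reported here.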

Additional observations from a re-analysis of the deposited data

Results flagged for a closer look

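The lss level in WT replicate 2 stood apart from the other WT libraries, at 1.14 CPM with the nearest at 0.407 CPM. It rests on 3 counts, against 1 in each of the others. It was the only case among 20 groups of 4 libraries examined by Dixon's test (the 9 members and yap1), where chance gives about 1 in 20.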

How the results depend on the processing

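Over 18 settings, the number of members changed stayed at 3 to 4 in all but 2 of them: it was 7 of 9 with genes kept at 1 CPM in 4 libraries, where 16.5% of all genes were called and lss, hsd17b7 and ebp entered through lf:YAP libraries, and 6 with no filter beyond 1 count. All genes changed numbered 1309 to 2538 without a single library, against 1804, and 2855 with no filter; without lf:YAP replicate 3 and WT replicate 4 together, a choice made after seeing the data, 4 members and 2336 genes were called. The summed level of the members was 2.31-fold higher in lf:YAP, 2.14-fold to 2.44-fold without a library, and 2.89-fold by total counts alone. cyp51 (2.70 to 3.17), msmo1 (1.08 to 1.53) and sc5d (1.85 to 2.51) passed in all 18 settings. tm7sf2 (-1.24 to -0.75) did not in 8, which besides the libraries named above were both scalings by total counts and no filter (adjusted p = 0.0809). dhcr7 (0.33 to 0.70) passed in the 2 scalings by total counts. No called gene among those named changed sign, with abca1a and fdft1 not followed over the settings.

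WT and lf:YAP libraries share replicate numbers, but no label ties them to a clutch or day. Same-numbered libraries correlated at -0.0515 to 0.0393 in their deviations from the group means, and 0 of 4 lf:YAP libraries correlated best with its own number. With the replicate block, 4 members and 1685 genes were called.

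With 5 or 6 counts per gene over all WT libraries, depth limits how closely the changes of lss, hsd17b7 and ebp can be sized.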
